A study of Cricetiscus sungorus with 24 samples.

Results

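The renin-angiotensin genes Agt, Ren1, Ace and Agtr1a and the membrane peptidases Enpep, Anpep, Mme, Dpp4 and Mep1a were followed as RNA in the kidneys of 24 Djungarian hamsters, which the sample labels call Siberian hamsters. These 9 genes were taken by symbol from the tables of both experiments, and each was represented by its mouse RefSeq transcript with the highest total. All 9 were among the 15842 genes listed in experiment 2, and 5 of them, the peptidases, were among the 9681 genes listed in experiment 1. Reads of the hamster carried the names of mouse transcripts, since they had been aligned to the mouse genome.

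Experiment 1 held adult males, 4 in a long photoperiod with 16 h of light per day (LP), 4 after 12 weeks in a short photoperiod with 8 h of light (SP12wk) and 4 after 28 weeks in it (SP28wk). It addressed how kidney transcripts follow the seasonal programme. Experiment 2 held adult females that had all spent 8 weeks in the short photoperiod. Of these, 6 were given 18 µg prolactin per injection on 3 days (PRL) and 6 were given the vehicle, named saline in the labels (SAL). It asked what prolactin does to a kidney in the short-day state. Each experiment was read on 1 nanopore flow cell, so sex, experiment, flow cell and depth cannot be told apart between them. The labels do not say whether samples of a group shared a litter or a cage, and p-values measure the spread between these samples.

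Renin, made by juxtaglomerular cells, cuts angiotensinogen (Agt) to angiotensin I, and angiotensin-converting enzyme (Ace) cuts that to angiotensin II, which acts on the type 1a receptor (Agtr1a). Aminopeptidase A (Enpep) and aminopeptidase N (Anpep) shorten angiotensins from the amino end, and neprilysin (Mme) cuts angiotensins, natriuretic peptides and kinins. Dipeptidyl peptidase 4 (Dpp4) and meprin alpha (Mep1a), with Anpep, Enpep and Mme, sit in the brush border of the proximal tubule, where peptides filtered by the glomerulus are broken down. The circulating substrate Agt comes mostly from the liver, but proximal tubule cells make it too.

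A level is given here as CPM, the count of the gene's transcript per 1000000 counts of the library, summed over 1 transcript per gene. These totals were 15687 to 57585 counts per library in experiment 1 and 174053 to 756523 in experiment 2. A single count was therefore worth 17.4 to 63.7 CPM in experiment 1 and 1.32 to 5.75 CPM in experiment 2, and 3 counts, the limit that a listed gene without a count allows, were worth 52.1 to 191 CPM and 3.97 to 17.2 CPM. The binomial intervals of pooled levels and the limits cover counting error only. The intervals of fold changes come from the edgeR fit and also include the spread between libraries. The libraries carried kidney RNA by their markers, as 14 of 15 proximal tubule markers were listed in each experiment, Cubn being the exception, with a summed level of 1630 to 3380 CPM in experiment 1 and 2160 to 5970 CPM in experiment 2. Markers of blood and immune cells summed to 14200 to 44100 CPM in experiment 1 and 8940 to 19500 CPM in experiment 2, so blood RNA was part of each library. These sums are too high, since the haemoglobin genes come in near-identical pairs with nearly equal counts (512 for Hba-a1 and 497 for Hba-a2 in LP, 479 for each of Hbb-bs and Hbb-bt), which marks the same reads counted on both. In bulk tissue, fewer cells of a type and less RNA per cell cannot be told apart.

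None of the 8 genes tested in experiment 2, and none of the 3 tested in experiment 1, passed the test in any comparison. In experiment 2, 0 of the 8 genes had an edgeR adjusted p under 0.05 and 0 had an unadjusted p under 0.05, beside 0 (0%) and 522 (4.88%) of the 10696 genes tested. In experiment 1, 0 of the 3 genes tested were called in any comparison, beside 0.0197% of the 5086 genes tested for SP12wk against LP, 0.138% for SP28wk against SP12wk, 0.216% for SP28wk against LP, 0.0393% for LP with SP28wk against SP12wk and 0.275% for the F test over the 3 groups. No gene had an unadjusted p under 0.05 there either, where 7.27%, 6.1%, 8.61%, 6.76% and 7.55% of all genes tested did. The alternative fit with limma-voom also called none of them. DESeq2 called none either, but it gave no adjusted p for at least Ace and Agt in experiment 2 and so could not call those. The values of each gene follow, with the interval of its difference.

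Renin was close to the limit of detection. The transcript of Ren1 had 1 count in SAL replicate 4 and 1 in PRL replicate 1, and none in the other 10 libraries of experiment 2. Pooled over the 2144195 counts of SAL this was 0.466 CPM, with an exact binomial 95% interval of 0.0118 to 2.6 CPM. Over the 2350628 counts of PRL it was 0.425 CPM, with an interval of 0.0108 to 2.37 CPM. Ren1 did not pass the filter on low counts and was not tested. The markers of juxtaglomerular cells, smooth muscle and pericytes reached a summed level of 109 to 202 CPM in the same libraries, and all 8 of them were listed. The highest was Tagln, with means of 82.9 CPM in SAL and 97.2 CPM in PRL, before Rgs5 (26.9 and 35.1 CPM) and Akr1b7 (15.2 and 16.6 CPM). This sum does not show how many renin cells were sampled. Whether reads of hamster renin were lost in the alignment to mouse was not tested. A difference between PRL and SAL was not detectable for renin at this depth.

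Angiotensinogen was counted in every library of experiment 2. In the SAL replicates, Agt stood at 6.4 CPM at the lowest, 14.2 CPM at the median and 24.3 CPM at the highest, and in the PRL replicates at 11.3, 15.1 and 31.7 CPM. The groups overlapped between 11.3 and 24.3 CPM, and PRL replicate 2 alone stood above that range. The means were 14.8 ± 6.15 CPM (SD, n = 6) in SAL and 17.2 ± 7.86 CPM (SD, n = 6) in PRL. PRL differed from SAL by a log2 fold change of 0.36 (SE 0.38, edgeR adjusted p = 0.998), and its 95% interval ran from a fold of 0.749 to 2.2. Without PRL replicate 2 the log2 fold change was -0.05, so the sign of this small difference rested on that library. It held 30.4% of all Agt counts of the experiment and 16.8% of all counts.

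The converting enzyme and the receptor had few counts. Ace had 9 counts in 6 libraries of experiment 2, and its mean level was 2.21 ± 2.56 CPM (SD, n = 6) in SAL and 1.19 ± 1.36 CPM (SD, n = 6) in PRL. The interval of its fold change ran from 0.214 to 2.56 (edgeR adjusted p = 0.998), which leaves room for a large change in either direction. Ace is made by endothelium in most organs and by the proximal tubule brush border in the kidney of several species. The 9 counts are those of its transcript with the highest total, and the other 2 transcripts listed had 6 and 5 counts.

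Agtr1a had 28 counts in 10 of 12 libraries. The SAL replicates held 0 CPM at the lowest, 8.49 CPM at the median and 16.2 CPM at the highest, against 0, 3.97 and 11.5 CPM in PRL. In both groups 1 library, SAL replicate 6 and PRL replicate 3, had no count, and the groups overlapped from 0 to 11.5 CPM. The means were 8.44 ± 6.04 CPM (SD, n = 6) in SAL and 4.81 ± 3.93 CPM (SD, n = 6) in PRL, and the log2 fold change was -0.78 (SE 0.61, edgeR adjusted p = 0.998). On the log2 scale its interval, a fold of 0.247 to 1.37, was the second widest of the 8 genes after that of Ace. A two-sided exact permutation test of the mean CPM gave p = 0.242, where the smallest p possible with 6 against 6 libraries is 0.00216.

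**Figure D1:**
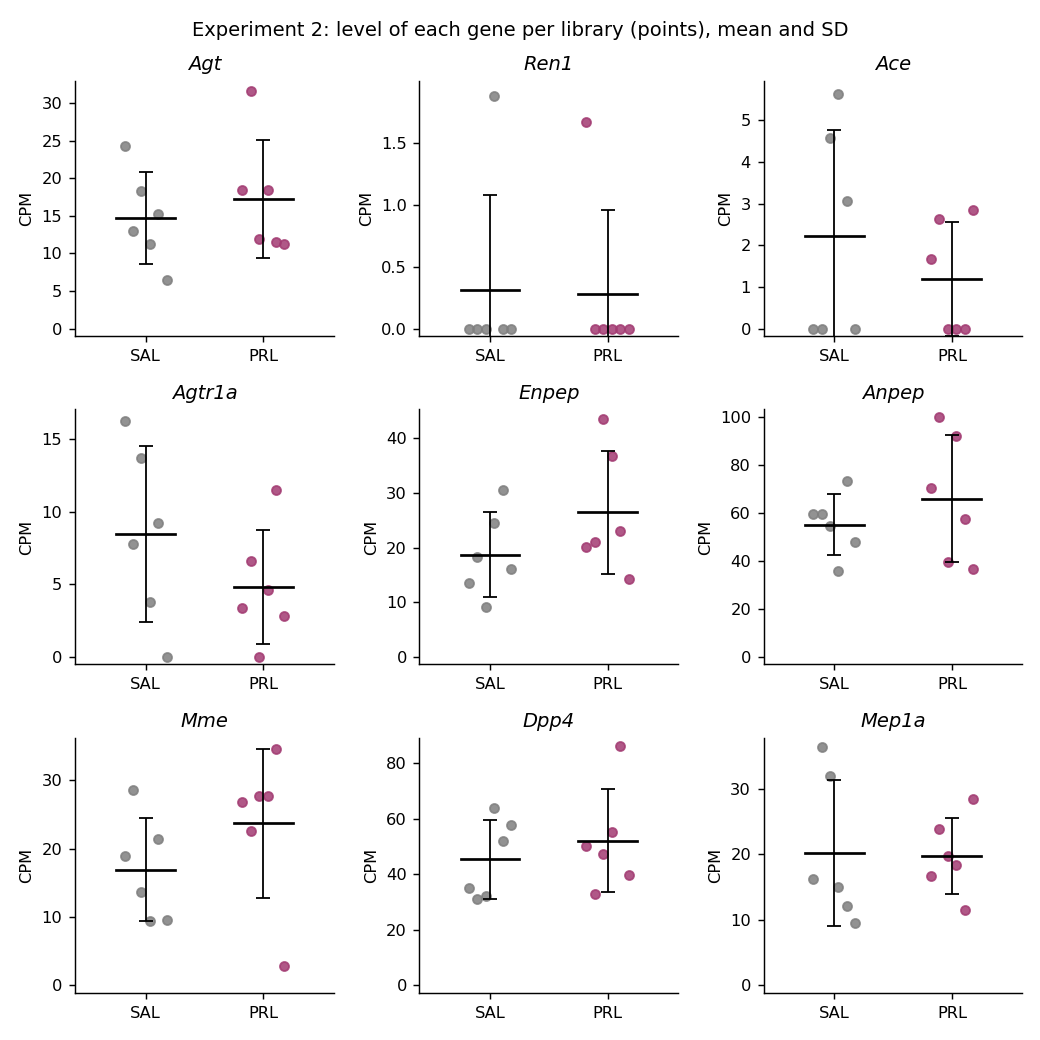
Level in CPM (vertical axis, a separate scale for each gene) of the 9 genes in the 6 SAL and 6 PRL libraries of experiment 2. Each point is a library, the thick line the mean and the thin bar the SD; the groups overlap for every gene, and Ren1 has 1 library with a count in each group.

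Enpep and Anpep, the aminopeptidases that act on angiotensins, both had higher means in PRL without passing a test. Enpep stood at 9.13, 17.1 and 30.6 CPM (lowest, median and highest) in SAL and at 14.2, 22.1 and 43.5 CPM in PRL. PRL replicates 3 and 4 lay above every SAL library, and the other 4 PRL libraries lay among them. Its log2 fold change was 0.29 (SE 0.35, edgeR adjusted p = 0.998), and the interval of the fold was 0.748 to 2. The exact permutation test of the mean CPM, 18.7 ± 7.75 in SAL and 26.4 ± 11.2 in PRL (SD, n = 6 each), gave p = 0.188, the smallest of the 9 genes.

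Anpep, with 286 counts, had the least relative counting error of the 9 genes. Its levels in SAL were 35.7, 57.1 and 73.4 CPM (lowest, median and highest), and in PRL 36.9, 63.9 and 100 CPM. PRL replicates 2 and 4, at 100 and 92 CPM, stood above all SAL libraries, while PRL replicates 3 and 6, at 39.5 and 36.9 CPM, stood near the lowest SAL library. The spread was therefore wider in PRL, at 66.1 ± 26.5 CPM, than in SAL, at 55.2 ± 12.7 CPM (SD, n = 6 each), and this difference in spread was not tested. For Anpep the log2 fold change was 0.26 (SE 0.27, edgeR adjusted p = 0.998), and its interval ran from a fold of 0.827 to 1.74. Without PRL replicate 2, which held 26.6% of the Anpep counts, it was 0.02.

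Neprilysin had its highest and its lowest library in PRL. Mme stood at 9.4, 16.3 and 28.6 CPM (lowest, median and highest) in SAL and at 2.84, 27.2 and 34.5 CPM in PRL. The highest 5 PRL libraries lay between 22.5 and 34.5 CPM, and PRL replicate 6, with a single count, lay under all others. Mme had a log2 fold change of 0.37 (SE 0.38, edgeR adjusted p = 0.998), and the means were 16.9 ± 7.5 CPM in SAL and 23.6 ± 10.9 CPM in PRL (SD, n = 6 each). The interval of the fold was 0.755 to 2.2. A rise of more than 2.2-fold or a fall to under 0.755 of the SAL level lay outside this interval.

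Dpp4 and Mep1a had fold changes closest to 1. Dpp4 removes dipeptides from incretins and chemokines, and its levels were 31.2, 43.6 and 63.9 CPM (lowest, median and highest) in SAL and 33, 48.8 and 86.2 CPM in PRL. The means were 45.3 ± 14.3 CPM in SAL and 52 ± 18.5 CPM in PRL (SD, n = 6 each). PRL replicate 5 was highest and the other 5 PRL libraries lay within the range of SAL. Its log2 fold change was 0.01 (SE 0.29, edgeR adjusted p = 0.999), with an interval of the fold from 0.672 to 1.5. Mep1a, a secreted and membrane-bound metalloprotease subunit, stood at 9.6, 15.6 and 36.4 CPM (lowest, median and highest) in SAL and at 11.5, 19.1 and 28.4 CPM in PRL, with all PRL libraries inside the range of SAL. It had a mean of 20.2 ± 11.1 CPM in SAL and 19.8 ± 5.82 CPM in PRL (SD, n = 6 each). Its log2 fold change was 0.02 (SE 0.36, edgeR adjusted p = 0.998), and the interval of the fold was 0.617 to 1.67. An interval of this width does not show that the groups were alike.

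Of the 8 genes tested in experiment 2, 6 had a log2 fold change above 0 and Ace and Agtr1a had one under 0, while 52.7% of all genes tested lay above 0. Of these 6, Dpp4 turned under 0 with sums over transcripts or another filter, and Mep1a with sums over transcripts. The median log2 fold change of the 8 genes was 0.14, and that of all genes was 0.03, with quartiles of -0.24 and 0.33. The summed level of the 5 peptidases was 141 to 190 CPM in SAL and 122 to 230 CPM in PRL. The summed markers of the proximal tubule, the cell that carries these enzymes, were at 2160 to 5280 CPM in SAL and 2460 to 5970 CPM in PRL. The part of tubule content in the differences was not tested.

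**Figure D2:**
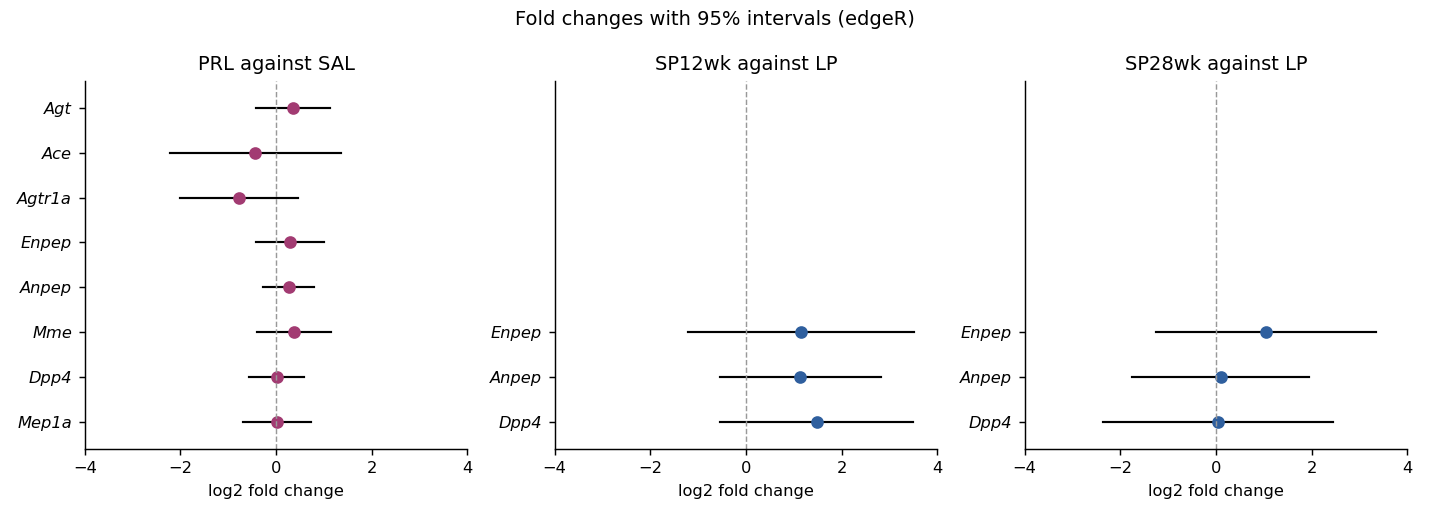
Log2 fold change (horizontal axis) with its 95% interval from edgeR for the genes tested, PRL against SAL in experiment 2 and SP12wk and SP28wk against LP in experiment 1. Points are estimates and lines are intervals; every interval includes 0, and those of experiment 1 are wider.

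In experiment 1 the 4 renin-angiotensin genes were not listed, and the 5 peptidases had 58 counts in all over 12 libraries. The peptidases with enough counts for a test were Anpep, Dpp4 and Enpep. Their means were highest in SP12wk, but no difference passed a test. All 3 had a log2 fold change above 0 for SP12wk against LP and for SP28wk against LP, as did 52.6% and 58.7% of all genes tested. None of the 3 had one above 0 for SP28wk against SP12wk or for LP with SP28wk against SP12wk, where 58.3% and 52.3% of all genes did. Summed over the 5 peptidases, LP libraries lay at 56.1 to 194 CPM, SP12wk libraries at 151 to 424 CPM and SP28wk libraries at 86.8 to 237 CPM, and the 3 groups overlapped.

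Dpp4 had 1, 0, 0 and 2 counts in LP replicates 1 to 4, 3, 3, 1 and 2 counts in SP12wk, and 0, 2, 1 and 1 counts in SP28wk. Every SP12wk library had a count, and the levels there were 50.2 to 191 CPM, against 0 to 77.7 CPM in LP and 0 to 83 CPM in SP28wk. In LP the mean was 31.2 ± 38.1 CPM, in SP12wk it was 105 ± 66.1 CPM, and SP28wk stood at 32.2 ± 35.8 CPM (SD, n = 4 each). For Dpp4 the log2 fold change was 1.48 (SE 1.03, edgeR adjusted p = 0.708) for SP12wk against LP, and -1.44 (SE 0.96, edgeR adjusted p = 0.979) for SP28wk against SP12wk. For SP28wk against LP it was 0.04 (SE 1.23), with an interval of the fold from 0.194 to 5.44. The first and second of these comparisons share the SP12wk libraries and are not separate evidence.

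Anpep had 0, 1, 2 and 2 counts in LP, 0, 2, 0 and 10 in SP12wk and 3, 0, 2 and 2 in SP28wk. SP12wk replicate 4 alone held 41.7% of the Anpep counts of the experiment and 11% of all counts. With it, the log2 fold change of SP12wk against LP was 1.13 (SE 0.86, edgeR adjusted p = 0.77), and without it -0.66. The same library turned the sign of the comparison of SP28wk with SP12wk, from -1.03 to 0.71. The direction of Anpep against SP12wk therefore rested on 1 library. Its mean level in SP12wk was 103 ± 134 CPM, above those of 61.2 ± 46.6 CPM in LP and 52.6 ± 49.9 CPM in SP28wk (SD, n = 4 each).

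Enpep was counted in 10 of 12 libraries at 1 or 2 counts. It had 1, 0, 0 and 1 counts in LP, 1, 1, 1 and 2 in SP12wk and 2, 1, 1 and 2 in SP28wk, so that both libraries without a count were in LP. Means were 52.8 ± 9.71 CPM in SP12wk and 46 ± 22.7 CPM in SP28wk, against 21.5 ± 25 CPM in LP (SD, n = 4 each). The two-sided exact permutation test of SP12wk against LP gave p = 0.0571, where the smallest p possible with 4 against 4 libraries is 0.0286. Enpep had a log2 fold change of 1.15 (SE 1.21, edgeR adjusted p = 0.834), with an interval of the fold from 0.429 to 11.4. A level of 1 count in these libraries is 17.4 to 63.7 CPM, so a library at 0 and one at 40.9 CPM, that of SP12wk replicate 1, differed by 1 count.

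Mme had 3 counts in experiment 1, in LP replicate 1 and SP28wk replicates 1 and 3. Mep1a had 2 counts, in SP12wk replicates 3 and 4. Neither passed the filter on low counts, and no difference was detectable at this depth.

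**Figure D3:**
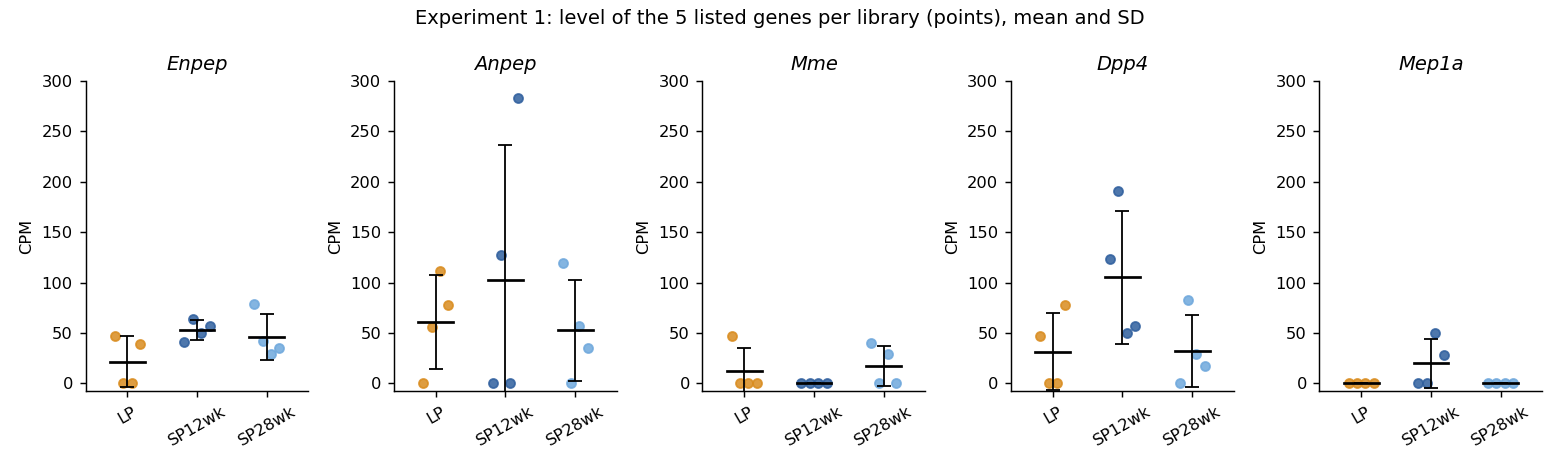
Level in CPM (vertical axis, the same scale in each panel) of the 5 peptidase genes listed in experiment 1, in 4 libraries each of LP, SP12wk and SP28wk. Points are libraries, thick lines means and thin bars the SD; SP12wk replicate 4 stands at 283 CPM for Anpep, and all libraries of SP12wk lie above 0 for Dpp4 and Enpep.

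The absence of the renin-angiotensin genes from the list of experiment 1 was set beside its depth. If each gene had taken the same share of the 320311 counts of experiment 1 as of the 4494822 counts of experiment 2, Ren1 would have had 0.143 counts, Ace 0.641, Agtr1a 1.995 and Agt 5.63. For Ren1 and Ace less than 1 count was due. Of all genes with 0.5 to 2 counts due, among them Ace and Agtr1a, 44% were not listed in experiment 1. Of those with 4 to 8 counts due, among them Agt, 8.58% were not listed. The hamsters were males in experiment 1 and females in experiment 2, so sex and depth cannot be told apart here.

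For the peptidases the counts of experiment 1 were set beside the counts due in the same way. Anpep had 24 counts where 20.4 were due, Dpp4 16 where 14.9 were due and Enpep 13 where 6.98 were due. Mme had 3 counts against 6.34 due, and Mep1a 2 against 6.48. Over all genes with 4 to 8 counts due, the ratio of counts to counts due had a median of 1.06 and the middle 80% ran from 0.14 to 3.17, and the ratios of Mep1a (0.308), Mme (0.473) and Enpep (1.86) lay within that range. The ratio of Dpp4 was 1.07, beside 0.129 to 3.13 for genes with 8 to 16 counts due, and that of Anpep was 1.18, beside 0.142 to 3.07 for genes with 16 to 32. Other brush border and pathway genes mostly had lower ratios. Most of these had more than 32 counts due, where no range over all genes was computed to set beside them. Among genes with at least 79 counts in experiment 2, 9 other brush border genes had a median ratio of 0.362 (0.0939 to 1.8). For 7 other genes of the renin-angiotensin and kinin pathways it was 0.194 (0.0848 to 1.06). The 6 of the 9 genes with that many counts had 0.772 (0 to 1.86). Intracellular peptidases with that many counts had ratios from 0.158 to 2.29. The cause was not tested.

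**Figure D4:**
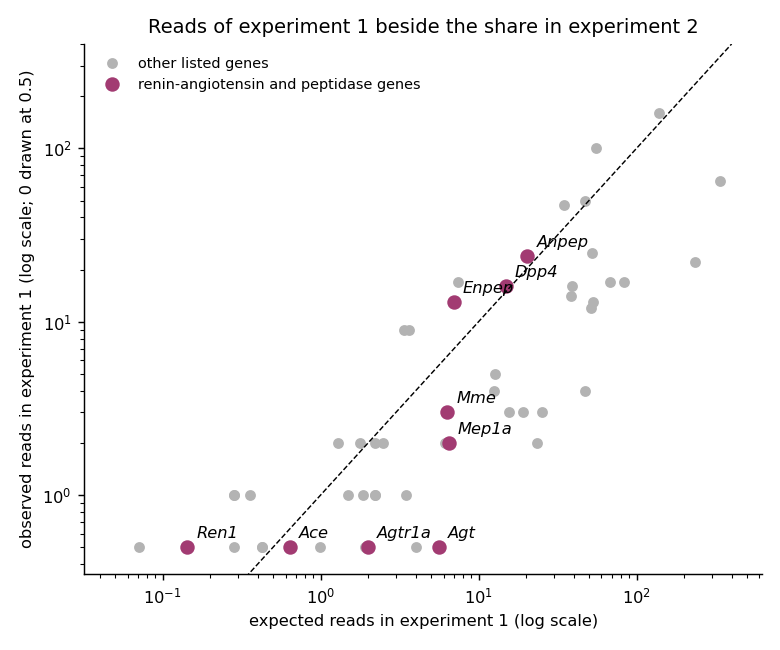
Counts in the 12 libraries of experiment 1 (vertical log axis, genes without a count drawn at 0.5) against the counts due from the gene's share in experiment 2 (horizontal log axis), with a dashed line where they are equal. Purple points are the 9 genes and grey points the other genes of the pathway, peptidase and brush border lists. Anpep and Dpp4 lie near the line, and Agt is the unlisted one of the 9 with most counts due, 5.63. Among grey points with at least 79 counts in experiment 2, the median ratio of counts to counts due was 0.194 for the pathway list and 0.362 for brush border genes. Most of the points of these 2 lists had more than 32 counts due, where no range over all genes was computed.

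Among the other 22 genes of the renin-angiotensin and kinin pathways, 18 were listed in experiment 2 and 12 were tested, of which 7 had a log2 fold change above 0 and none passed the test or had an unadjusted p under 0.05. The prorenin receptor Atp6ap2 was at 150 ± 34.9 CPM in SAL and 158 ± 50.2 CPM in PRL (SD, n = 6 each). Agtrap, which binds the type 1 receptor and promotes its uptake into the cell, was at 134 ± 51.9 CPM in SAL and 153 ± 37.6 CPM in PRL (SD, n = 6 each). The receptor-side genes Agtr1b, Mas1 and Bdkrb2 had 6, 5 and 1 counts.

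The kinin genes had more counts. Kallikrein Klk1, which releases kinins, had a mean of 790 ± 443 CPM in SAL and 1060 ± 563 CPM in PRL (SD, n = 6 each), and the kininogens Kng1 and Kng2, its substrates, had means of 74.3 and 69.8 CPM in SAL and 83.6 and 78.3 CPM in PRL. Klk1 has many near-identical relatives in the mouse, and Kng1 and Kng2 resemble each other, so which of them a hamster read came from is uncertain. The cathepsins Ctsa and Ctsb had means of 112 and 213 CPM in SAL and 119 and 201 CPM in PRL. The peptidases Rnpep, Prcp, Thop1, Lnpep, Ece1, Prep and Nln had 49, 25, 21, 18, 9, 4 and 4 counts.

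Of the 5 genes of the pathway list tested in experiment 1, Klk1 alone had an unadjusted p under 0.05. Klk1 had one for SP12wk against LP, beside 7.27% of all genes tested, and for SP28wk against LP, beside 8.61%. It had 2, 0, 0 and 3 counts in LP, 1, 0, 13 and 12 in SP12wk and 0, 15, 12 and 7 in SP28wk. Counts above 5 were thus found in 5 short-day libraries and in no LP library, while SP12wk replicate 2 and SP28wk replicate 1 had none. This limit was chosen after the counts were seen, and the libraries differed in depth. Klk1 had a log2 fold change of 2.25 (SE 0.73, edgeR adjusted p = 0.554) for SP12wk against LP and 2.34 (SE 0.71, edgeR adjusted p = 0.148) for SP28wk against LP, and neither passed the threshold.

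In the lists of other brush border enzymes, intracellular peptidases and brush border transporters, 3, 5 and 6 genes were tested in experiment 1, and 4 of them had such an unadjusted p in at least 1 of the comparisons. The share of all genes with one in at least 1 of the comparisons was not computed, so this count has no like share beside it. In a single comparison, between 6.1% and 8.61% of all genes tested had one. For SP12wk against LP, 1 gene of each of the 3 lists had one, beside 7.27% of all genes tested. In experiment 2, 6, 13 and 7 genes of these lists were tested and none had one, beside the 4.88% of all genes. Alkaline phosphatase Alpl, a brush border enzyme, had a log2 fold change of -1.28 (SE 0.54, edgeR adjusted p = 0.6) for SP12wk against LP and -1.2 (SE 0.52, edgeR adjusted p = 0.529) for SP28wk against LP. Cltrn, the collectrin that carries amino acid transporters to the brush border, had 3.14 (SE 1.1, edgeR adjusted p = 0.336) for SP28wk against LP. Slc3a1, the heavy subunit of the cystine transporter, had 1.79 (SE 0.86, edgeR adjusted p = 0.615) for SP12wk against LP. The cytosolic prolidase Pepd had 2.54 (SE 1.24, edgeR adjusted p = 0.637) in that comparison. SP12wk replicates 3 and 4, with 13 and 12 counts of Klk1, also held 14 of the 15 counts of Slc3a1 and all 8 counts of Pepd in SP12wk.

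Whether the 9 genes followed the tubule content of a library was described over the 12 libraries of experiment 2. Correlations of log2(CPM + 1) with the summed proximal tubule markers are given as a description, since the libraries share a flow cell and each gene has its own counting error. Among the 6 genes with at least 79 counts, r was 0.679 for Agt, 0.396 for Anpep, 0.312 for Mme, 0.307 for Mep1a, -0.26 for Dpp4 and -0.433 for Enpep. Agtr1a, with 28 counts, had 0.711, the highest of the 9 genes, and Ace and Ren1, with 9 and 2 counts, had 0.151 and 0.089. Of the other brush border genes with at least 79 counts, the 9 that qualified had r between 0.709 and 0.921. Among them were gamma-glutamyltransferase Ggt1 at 0.921, Slc3a1 at 0.894 and Cltrn at 0.814. The limit of 79 counts was chosen after the values were seen, and the brush border genes had 177 to 3286 counts against 79 to 286.

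Leaving out PRL replicate 2 and SAL replicate 6, the libraries farthest from the median of the markers, r ran from -0.671 to 0.391 for the 6 genes and from 0.636 to 0.894 for the 9 others. Within SAL, r was 0.794 for Agt, 0.039 for Anpep, -0.766 for Dpp4 and -0.668 for Enpep, and within PRL it was 0.533, 0.586, 0.13 and -0.456. Mep1a had 0.72 within SAL and -0.38 within PRL, and Mme 0.254 and 0.331. The r of Mep1a and Dpp4 thus differed in sign between the groups, with 6 libraries in each. The proximal tubule markers themselves were not uniform, since Vil1, which builds the microvilli, had r of -0.347 and Pck1 -0.079 with their sum. Across libraries the summed 5 peptidases varied 1.89-fold, from 122 to 230 CPM, while the summed markers varied 2.76-fold.

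**Figure D5:**
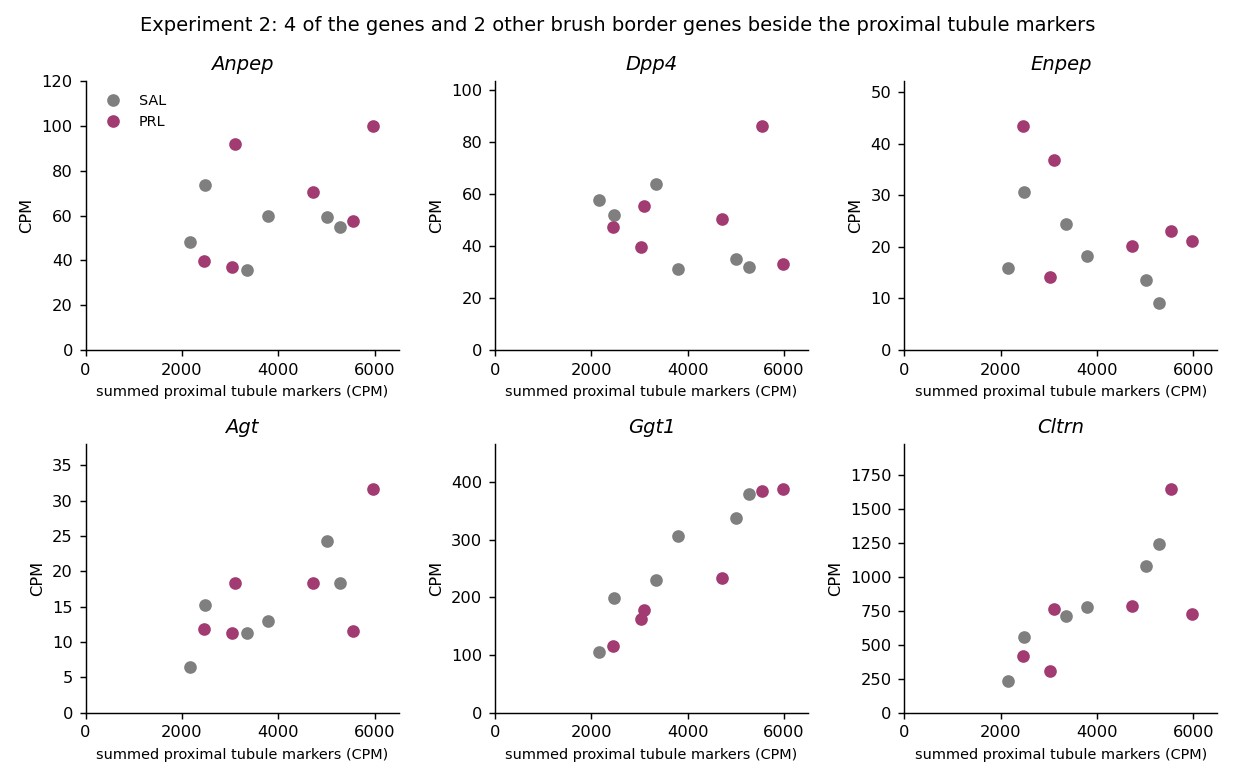
Level in CPM (vertical axis) of Anpep, Dpp4, Enpep and Agt, and of the brush border genes Ggt1 and Cltrn, against the summed level of the proximal tubule markers in CPM (horizontal axis) in the 12 libraries of experiment 2. Points are libraries, grey for SAL and purple for PRL; Ggt1 lies along a rising line (r of 0.921 on the log scale), and Dpp4 and Enpep do not.

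The 9 genes also varied among themselves. Of the 15 pairs that the 6 genes with at least 79 counts form, 9 had a positive r, with a median of 0.128. The highest was 0.691, between Agt and Anpep, and the lowest was -0.793, between Dpp4 and Mep1a. Beyond counting, the spread between libraries was largest for Anpep, whose chi-square per degree of freedom over the 12 libraries was 3.12, and it was 1.66 for Dpp4, 1.52 for Mme, 1.38 for Agt, 1.23 for Enpep and 1.17 for Mep1a, where 1 is the value for counting error alone.

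For the 2 genes with a median of at least 10 counts, the genes with the most similar pattern over the 12 libraries were looked up among 3213 genes. Nearest to Anpep were Slc5a2 (r = 0.834), the glucose transporter of the early proximal tubule, BC029722 (0.822) and Selenbp1 (0.821). Nearest to Dpp4 were Ubqln2 (0.845), Pum2 (0.831) and Rbm39 (0.822). The highest r among 3213 genes is high by choice, and it says nothing of shared control.

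The rows that stand for the genes were checked for shared counts. Anpep, Agt and Mep1a were each listed in experiment 2 on 2 transcripts with equal counts and Agtr1a on 3, which marks the same reads counted on each. Mme was listed on 5 transcripts with 81 to 89 counts. For Dpp4, NM_010074.3 had 209 counts and the other 3 transcripts had 3 to 6. No transcript of another gene had the counts of these genes in experiment 2, apart from Ren1, whose 2 single counts were shared as a pattern by 81 transcripts.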

How the data were processed

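RNA of 24 kidneys was sequenced as nanopore cDNA, 12 libraries on each of 2 flow cells. The methods name a direct cDNA kit and the labels a PCR-cDNA kit. The authors used Guppy for basecalling and demultiplexing, Porechop to remove adapters, Filtlong to select reads and Minimap2 for alignment to the mouse genome. The submitters' processing notes also name Salmon. The authors deposited estimated counts per mouse transcript, not scaled to depth, in which 1 read can count on several transcripts of a gene or of near-identical genes. Genome coordinates and sequences were not used here.

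The transcript with the highest total was taken for each gene, and counts were rounded. Total counts per library were 15687 to 57585 in experiment 1 and 174053 to 756523 in experiment 2. In R 4.3.3, edgeR 4.0.16 fitted a quasi-likelihood model with TMM scaling to each experiment. Tested were genes counted in 4 or more of the 12 libraries of experiment 1 or in 6 or more of those of experiment 2, and p was adjusted over all genes tested by Benjamini-Hochberg, with a threshold of 0.05. Two-sided exact permutation tests of mean CPM (scipy 1.17.1), unadjusted, were a second test. The procedure was tested on simulated data. The alternatives were the sum over transcripts, no filter, a stricter filter (8 and 12 libraries), no TMM, DESeq2 1.42.0, limma-voom (limma 3.58.1), a replicate block and each library left out. Alternatives planned for CPM files did not apply, as the files held counts.

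Named were the 9 genes, the listed genes of the pathway list (1 is not reported here), genes of the other lists with an unadjusted p under 0.05, and the 3 genes most like each gene with a median of at least 10 counts; Ggt1, Vil1 and Pck1 were chosen after their values were seen. The members and lists were chosen with earlier results of these data known.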

Additional observations from a re-analysis of the deposited data

Results flagged for a closer look

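Of 30 groups of libraries of these genes, 4 held a library far from the rest by Dixon's criterion at the 95% level, where chance gives about 1 in 20 groups, or 1.5. Agt stood at 31.7 CPM in PRL replicate 2, on 24 counts, against 18.4 CPM in the next PRL library. The other 3 were single counts in groups with no other count, Mme at 47 CPM in LP replicate 1, Ren1 at 1.88 CPM in SAL replicate 4 and Ren1 at 1.67 CPM in PRL replicate 1. The criterion always flags such a group, so the 4 cannot be set against 1.5.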

How the results depend on the processing

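No setting called any of the 9 genes. The smallest adjusted p of their 20 fold changes was 0.548 over all settings. Apart from libraries left out, 127 of 138 values kept their direction and 11 turned. With sums over transcripts, Dpp4 (-0.023) and Mep1a (-0.052) turned for PRL against SAL. Without a filter Dpp4 was at -0.014 there, and with the stricter filter at -0.006 there and -0.014 for SP28wk against LP. For SP28wk against LP, Anpep turned to -0.25 without TMM, -0.087 with DESeq2 and -0.04 with limma-voom, and Dpp4 to -0.26 without TMM and -0.076 with DESeq2. The cause of these turns was not tested, and each value was small beside its standard error.

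With libraries left out, 205 of 234 values kept their direction. The log2 fold change ran from -0.053 to 0.56 for Agt (PRL against SAL, turned without PRL replicate 2), from -0.12 to 0.16 for Dpp4 and from -0.14 to 0.28 for Mep1a. For Anpep it ran from -0.66 to 1.55 (SP12wk against LP), from -1.56 to 0.71 (SP28wk against SP12wk) and from -1.52 to 0.68 (LP with SP28wk against SP12wk), each turned without SP12wk replicate 4, and from -0.42 to 0.35 (SP28wk against LP). For Dpp4 it ran from -0.63 to 0.93 (SP28wk against LP), and for Enpep from -0.41 to 0 (SP28wk against SP12wk, at 0 without SP12wk replicate 4).

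The number of all genes called moved more. For SP12wk against LP it was 1, and 0 under each of the other 7 settings. For SP28wk against SP12wk (7) it was 0 with sums, 2 with the stricter filter and 2 with DESeq2. For SP28wk against LP (11) it was 0 with sums, 5 with the stricter filter, 2 with DESeq2 and 30 with limma-voom. For LP with SP28wk against SP12wk (2) it was 0 with sums, without a filter, with the stricter filter, with DESeq2 and with limma-voom. The F test over 3 groups (14) gave 0, 6, 3 and 31 with sums, the stricter filter, DESeq2 and limma-voom. For PRL against SAL (0) it was 1 with sums and 92 without a filter. Leaving out libraries gave 0 to 8, 2 to 11, 8 to 54, 0 to 2, 10 to 40 and 0 to 44 in the same order, with most calls without LP replicate 4 (8, 54 and 40) or PRL replicate 4 (44), PRL against SAL also giving 27 without SAL replicate 6 and 26 without PRL replicate 3.

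A replicate block gave 94 genes called for PRL against SAL and 0 for SP12wk against LP, and turned Mep1a to -0.054 (PRL against SAL). The numbers do not pair the libraries, which came from different animals. Same-numbered libraries had correlations of deviations from -0.081 to 0.169 in experiment 1 (3 of 12 pairs over 0.1) and from -0.145 to 0.195 in experiment 2 (1 of 6).

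Depth limits experiment 1, in which the 5 peptidases had 58 counts in all.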
